A study of Mus musculus with 12 samples.

Results

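The circadian clock genes examined in the ileum were Per1, Per2, Per3, Cry1, Cry2, Arntl (which encodes BMAL1), Clock, Nr1d1, Nr1d2 and Dbp. These 10 genes were taken from the 54838 genes of the count table by matching Ensembl identifiers to a list of core clock and clock output genes. The matching used no measured value, but the list was chosen with earlier results of these data known. The ileum came from 12 C57BL/6J mice with no modified allele. The study's methods describe such mice as adult females. The water + PBS and water + Dex mice drank normal water for 7 days, and the ZnSO4 + PBS and ZnSO4 + Dex mice drank water with 25 mM ZnSO4 for the same time. They were then injected with PBS, or with 200 µg of Dex (dexamethasone, a synthetic glucocorticoid that activates the glucocorticoid receptor) in PBS, and the ileum was taken 2 h later. Each group held 3 mice. The p-values below set a difference of groups against the spread between mice of a group. That spread was estimated for each gene from all 4 groups together, so leaving out a mouse of another group can change a call. The hour of the day at which the ileum was taken is not given in the sources used here.

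The mammalian clock is a transcriptional feedback loop that runs in almost every cell. The proteins CLOCK and BMAL1 form the positive limb, a pair of transcription factors that bind E-box sequences and switch on the Per and Cry genes. The PER and CRY proteins form the negative limb and shut CLOCK and BMAL1 down again. REV-ERBα and REV-ERBβ, encoded by Nr1d1 and Nr1d2, repress Arntl in a second, stabilising loop, and Dbp is an output gene whose product binds D-box sequences. In the gut, clocks run in the epithelium and in the muscle layer and are shifted by feeding and by glucocorticoids, and Per1 is a textbook target of the glucocorticoid receptor.

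The total count per mouse lay between 10760132 and 11827487 reads. Markers of ileal enterocytes were abundant in every mouse, with summed levels of 8050 to 16805 CPM (counts scaled to library size) over 6 genes. The sum was 10556 to 13023 CPM in the water + PBS and 13140 to 16475 CPM in the water + Dex mice, with no overlap. It overlapped between the ZnSO4 groups, at 10830 to 16805 CPM with PBS and 8050 to 14069 CPM with Dex. The part of the shift in water mice in the clock gene values was not tested. Known targets of the treatments moved in all mice. The Dex effect on Fkbp5 was an LFC (log2 fold change) of 3.34 in water mice and 3.39 in ZnSO4 mice, and the ZnSO4 effect on the metallothionein gene Mt1 was 4.79 in PBS mice and 4.42 in Dex mice. Levels of B cell and liver genes differed between the tissue pieces. The summed level of 8 B cell markers varied 5.41-fold to 39.5-fold between the mice of 1 group and that of 4 liver genes 3.20-fold to 114-fold, and no gene of either list was at 0 in all mice of a group. ZnSO4 + Dex replicate 2 differed most from the others of its group and had the lowest normalised count of the group for 8 of the 10 clock genes. It had the lowest enterocyte sum of its group (8050 CPM against 12868 and 14069). Its sums of smooth muscle markers (2318 CPM against 1847 and 1604) and of liver genes (208 CPM against 53.5 and 7.88) were the highest of the group. The part of this tissue mix in its clock gene values was not tested.

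All clock genes were detected, at very different depth. Raw counts per mouse were 1023 to 1457 for Clock and 715 to 1011 for Arntl, but 34 to 71 for Per3, 21 to 121 for Nr1d1 and 5 to 25 for Dbp. All 10 passed the filter on low counts. Per length (FPKM, counts scaled to exon length and to library size), Cry1 had the highest level in the water + PBS mice, 15.4 ± 3.84 (mean ± SD, n = 3). Arntl followed at 9.9995 ± 0.715, and their ranges did not overlap. The next levels were 8.24 ± 0.742 FPKM for Clock and 5.47 ± 2.16 FPKM for Per2, whose ranges overlapped. Nr1d2 (2.95 ± 0.256 FPKM) and Per1 (2.94 ± 0.202 FPKM) also overlapped. Below them stood Cry2 at 2.01 ± 0.34 FPKM and Nr1d1 at 1.38 ± 0.233 FPKM, each apart from its neighbours. Dbp (0.471 ± 0.231 FPKM) and Per3 (0.409 ± 0.11 FPKM) were lowest and overlapped.

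The order changed with treatment mainly through Per1 and Cry2. In the water + Dex mice Per1 stood at 12.3 ± 0.629 FPKM, next to Cry1 (13.8 ± 1.47 FPKM), with overlapping ranges. In the ZnSO4 + Dex mice Per1 led the order at 13.2 ± 1.37 FPKM, apart from Arntl at 9.99 ± 1.71 FPKM. Cry2 was 7 or 8 in rank in both PBS groups and 4 in both Dex groups. Nr1d1 was 8 in rank in 3 groups and 6 in the ZnSO4 + PBS mice, at 2.94 ± 0.404 FPKM, where its range overlapped those of its neighbours Per2 and Per1.

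**Figure D1:**
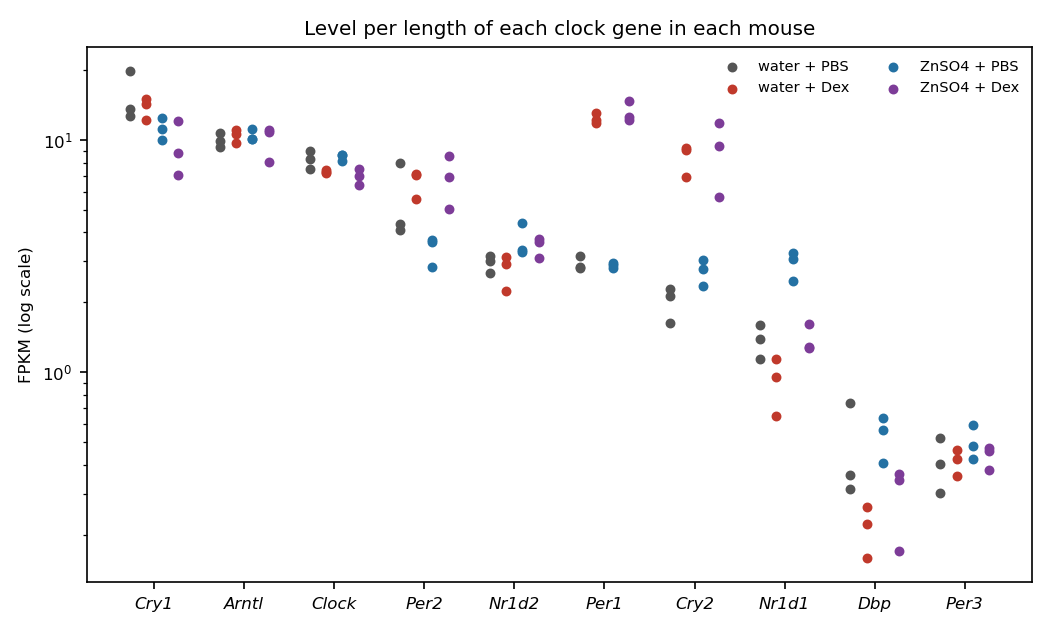
Level per length (FPKM, log scale) of each clock gene in each of the 12 mice, ordered by the mean of the water + PBS group; each point is a mouse and colours mark the 4 groups. Per1 moves from 2.94 FPKM in the water + PBS mice to 12.3 and 13.2 FPKM in the Dex groups, while Dbp and Per3 stay lowest in all groups.

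The mice of a group also agreed to different degrees. The within-group SD of log2 CPM was 0.09 for Clock and 0.10 for Per1, at the 10.1 and 12.7 percentiles of all 15938 genes tested, whose median was 0.19. It was 0.33 for Cry2, 0.36 for Per2 and 0.44 for Dbp, at the 76.2, 78.8 and 86.1 percentiles. A difference of the same size was therefore resolved better in Per1 or Clock than in Per2 or Dbp.

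The start regions of the 3 clock genes with the largest called changes are shown because these genes moved with Dex or with ZnSO4. Sequences are from RefSeq on GRCm38.p6, 250 bases before the annotated start in the direction of the gene. Windows were found for 9 of the 10 genes, all but Per2. The motifs searched, on both strands, were the E-box CACGTG and the E-prime box CACGTT, which CLOCK and BMAL1 can bind, the D-box TTATGNAA, the core of the ROR and REV-ERB element TNGGTCA, the cAMP response element TGACGTCA and the glucocorticoid response element GNACANNNTGTNC. The E-box and the E-prime box share the letters CACGT, and no stretch was counted as both. Capitals mark every match. Per1 (chromosome 11, plus strand) has 2 annotated starts, with windows at chr11:69098699-69098948 and chr11:69099902-69100151. The window of Cry2 is at chr2:92434070-92434319 on the minus strand, and that of Nr1d1 at chr11:98775378-98775627 on the minus strand.
Per1, first start: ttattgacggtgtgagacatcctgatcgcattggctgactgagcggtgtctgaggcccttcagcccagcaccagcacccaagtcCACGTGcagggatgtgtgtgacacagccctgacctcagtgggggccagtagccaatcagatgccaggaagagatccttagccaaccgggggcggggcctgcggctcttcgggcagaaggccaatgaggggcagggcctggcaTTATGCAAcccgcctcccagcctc
Per1, second start: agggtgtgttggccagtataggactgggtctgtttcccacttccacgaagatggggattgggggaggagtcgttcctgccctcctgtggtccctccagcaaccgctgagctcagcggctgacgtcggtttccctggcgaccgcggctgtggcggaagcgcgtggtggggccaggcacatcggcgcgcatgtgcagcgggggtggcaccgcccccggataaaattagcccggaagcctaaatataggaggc
Cry2: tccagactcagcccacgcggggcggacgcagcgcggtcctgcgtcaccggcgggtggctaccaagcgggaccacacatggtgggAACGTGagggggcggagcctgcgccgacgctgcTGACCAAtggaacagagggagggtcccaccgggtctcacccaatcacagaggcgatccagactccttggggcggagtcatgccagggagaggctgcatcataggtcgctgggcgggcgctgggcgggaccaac
Nr1d1: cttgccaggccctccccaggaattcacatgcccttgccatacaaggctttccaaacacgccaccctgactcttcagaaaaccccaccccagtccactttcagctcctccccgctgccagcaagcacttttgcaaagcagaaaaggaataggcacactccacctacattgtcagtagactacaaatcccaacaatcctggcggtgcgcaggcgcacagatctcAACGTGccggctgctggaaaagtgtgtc

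The first Per1 window holds an E-box that begins 166 bases before the start and a D-box that begins 24 bases before it. The second window holds no match. The Cry2 window holds an E-prime box 166 bases and a ROR element core 133 bases before the start, both on the opposite strand. The Nr1d1 window holds 1 E-prime box, 28 bases before the start and also on the opposite strand. The 9 genes have 13 windows, as Per1, Arntl and Clock have several starts. Of these 13 windows, 2 held an E-box (Per1 and Cry1), 3 an E-prime box (Cry1, Cry2 and Nr1d1), 2 a D-box (Per1 and Per3) and 4 a ROR element core (Per3, Cry2 and both overlapping windows of Arntl). Of all 32851 windows of this length, 6.02% hold an E-box, 3.85% an E-prime box, 3.07% a D-box and 9.19% a ROR element core. No clock gene window held the cAMP response element or the glucocorticoid response element, which 1.55% and 0.387% of all windows hold. A match is a run of letters and not a shown binding site.

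Dex for 2 h in water mice raised Per1 and Cry2, both of the negative limb, about 4-fold. No other clock gene passed the test. With edgeR's quasi-likelihood test and Benjamini-Hochberg adjustment over the 15938 genes tested, 2 of the 10 genes were called (adjusted p under 0.05), both upregulated and both past the study's cut-off of an LFC of 0.8. Of all genes tested, 9.93% were called in this comparison, 5.41% upregulated and 4.51% downregulated. The groups did not overlap for 4 of the 10 genes (Per1 and Cry2 higher, Clock and Dbp lower with Dex), against 29.7% of all genes tested. The median LFC was -0.04 over the 10 genes and -0.01 over all genes tested. In bulk tissue, more RNA per cell and more cells of a type cannot be told apart.

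Per1, whose protein is an early-acting brake on CLOCK and BMAL1, had 203, 183 and 179.6 normalised counts in the water + PBS mice. The water + Dex mice had 779, 757 and 835. Every Dex mouse lay far above every PBS mouse. The fold was 4.19 (LFC 2.07, SE 0.09, 95% interval 1.87 to 2.27, adjusted p = 4.7e-07).

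Cry2, which encodes a cryptochrome that partners PER proteins, had 153, 164 and 117 normalised counts in the water + PBS mice. The water + Dex mice had 498, 667 and 649. The lowest Dex mouse stood well above the highest PBS mouse, and the Dex mice spread more widely than for Per1. The fold was 4.19 (LFC 2.07, SE 0.24, 95% interval 1.54 to 2.60, adjusted p = 2.2e-04). Of the exonic bases of Cry2, 4.67% overlap D930015M05Rik on the opposite strand. The calls of Per1 and Cry2 held in all 12 fits that each left out 1 mouse, with LFCs of 2.02 to 2.12 for Per1 and 1.94 to 2.19 for Cry2.

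Per2, the second brake of the loop, was not called in water mice. The water + PBS mice had 274, 289 and 530.2 normalised counts and the water + Dex mice had 470.5, 370.4 and 475. The third PBS mouse exceeded all Dex mice, so the groups overlapped. The LFC was 0.27 with a 95% interval of -0.29 to 0.82 (adjusted p = 0.58), and 0.64 without water + PBS replicate 3 (adjusted p = 0.10). Per3 (LFC 0.02, interval -0.46 to 0.50) and Cry1 (LFC -0.15, interval -0.59 to 0.28) overlapped as well.

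In the positive limb, Arntl was at 855.9 ± 61.2 normalised counts in water + PBS and 897 ± 58.7 in water + Dex mice (n = 3 each, LFC 0.07, interval -0.18 to 0.32). Clock was at 1287 ± 116 and 1141 ± 18.4, and its Dex mice all lay below the PBS mice. Its LFC of -0.17 (interval -0.35 to -0.0003) did not pass the test (adjusted p = 0.22).

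In the stabilising loop and the output, the values with Dex were lower but none passed. Nr1d1, which encodes the repressor REV-ERBα, had 48.6, 56.2 and 39.9 normalised counts in the water + PBS mice and 33.4, 40.0 and 22.7 in the water + Dex mice. The groups touched, and the LFC was -0.59 (SE 0.22, adjusted p = 0.14). Nr1d2 had an LFC of -0.09 (interval -0.43 to 0.25). Dbp had 10.7, 25.1 and 12.3 normalised counts in the water + PBS mice and 8.92, 5.40 and 7.56 in the water + Dex mice. The groups were apart, but on few reads, and the LFC of -1.12 had an SE of 0.42 (adjusted p = 0.13). Its highest value was in water + PBS replicate 2, the mouse with the highest summed level of B cell markers, 649 CPM against 184 and 29.3 in the others of the group and 15.7 to 235 in the water + Dex mice. Without that mouse the LFC of Dbp was -0.65 (adjusted p = 0.44), and with these markers as a covariate it was -0.85 (adjusted p = 0.24). Of the exonic bases of Dbp, 18.01% overlap Sphk2 on the opposite strand, the highest such share of the 10 genes.

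**Figure D2:**
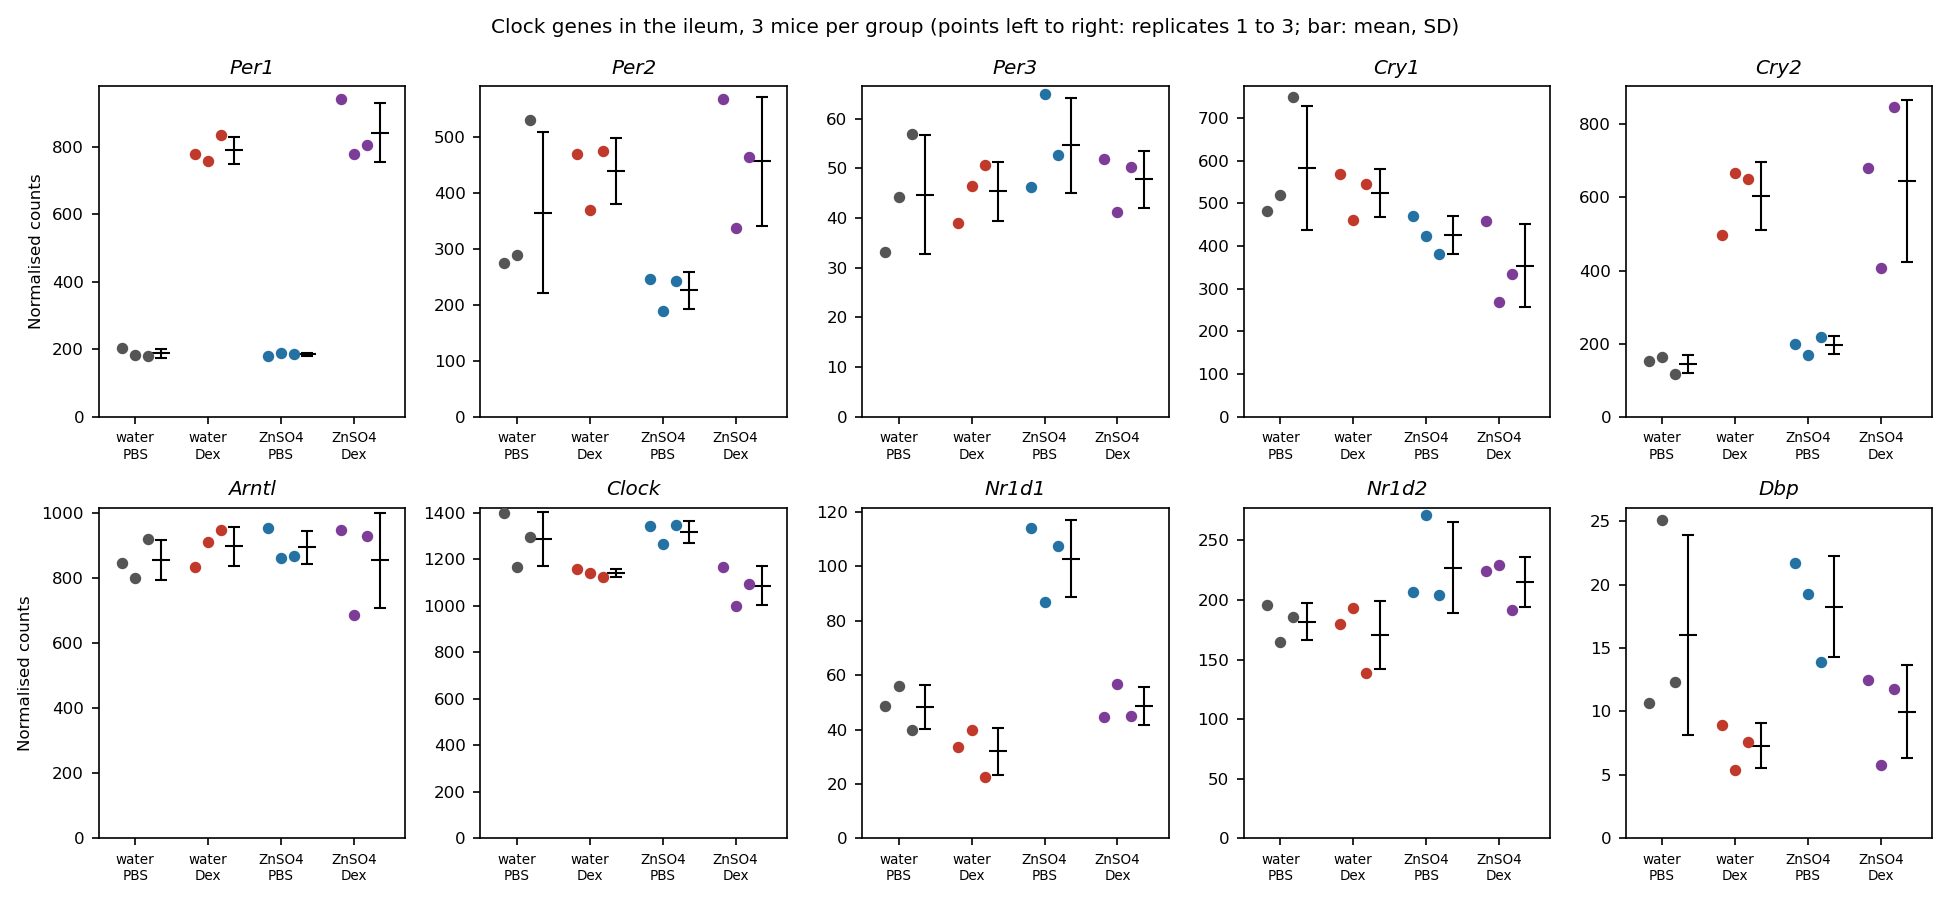
Normalised counts (y axis, linear from 0) of the 10 clock genes, a panel per gene and a point per mouse, in the 4 groups along the x axis; the black mark and bar are mean and SD of 3 mice. Per1 and Cry2 separate Dex from PBS mice with either drinking water, and the ZnSO4 + PBS mice stand alone at the top for Nr1d1 (86.9 to 114).

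In mice that had drunk ZnSO4, Dex raised Per1, Cry2 and Per2 and lowered Nr1d1 and, slightly, Clock. These 5 of the 10 genes were called, 3 upregulated and 2 downregulated, and all but Clock exceeded an LFC of 0.8. Of all genes tested, 13.7% were called, 6.65% upregulated and 7.08% downregulated. The groups did not overlap for 6 of the 10 genes (Per1, Per2 and Cry2 higher, Clock, Nr1d1 and Dbp lower), against 29.1% of all genes tested. The median LFC was -0.14 over the 10 genes and 0.01 over all genes tested.

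Per1 had 180.1, 189 and 186 normalised counts in the ZnSO4 + PBS mice and 943, 778 and 807 in the ZnSO4 + Dex mice. The PBS mice were almost alike, and the Dex mice were all above them. The fold was 4.55 (LFC 2.19, SE 0.09, adjusted p = 1.3e-07).

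Cry2 had 199.9, 169 and 219 normalised counts in the ZnSO4 + PBS mice and 680.2, 408 and 848 in the ZnSO4 + Dex mice. The groups were apart, although the second Dex mouse stood well below the others of its group. The fold was 3.29 (LFC 1.72, SE 0.24, adjusted p = 5.2e-04), and without that mouse the LFC was 1.96. Per1 and Cry2 were called in all 12 fits that left out 1 mouse.

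Per2 had 246, 189 and 243 normalised counts in the ZnSO4 + PBS mice and 568, 337 and 463 in the ZnSO4 + Dex mice. No Dex mouse overlapped a PBS mouse. The fold was 2.02 (LFC 1.01, SE 0.26, adjusted p = 0.022). The call was lost in 5 of the 12 fits that left out 1 mouse, with an adjusted p of 0.093 and 0.0504 without ZnSO4 + Dex replicates 1 and 3 and of 0.052, 0.082 and 0.0502 without ZnSO4 + PBS replicates 1, 2 and 3. The LFC lay between 0.82 and 1.19 in the 12 fits.

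Nr1d1 had 114, 86.9 and 107 normalised counts in the ZnSO4 + PBS mice and 44.6, 56.7 and 44.9 in the ZnSO4 + Dex mice. Each Dex mouse lay below each PBS mouse. Nr1d1 was downregulated with an LFC of -1.07 (SE 0.21, adjusted p = 0.0052), and the call held in all 12 fits that left out 1 mouse (LFC -1.20 to -0.99). Of its exonic bases, 8.55% overlap Thra on the opposite strand.

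Clock, the enzyme and DNA-binding partner of BMAL1, had 1342, 1265 and 1350 normalised counts in the ZnSO4 + PBS mice and 1166, 1001 and 1093 in the ZnSO4 + Dex mice. Every Dex mouse lay under every PBS mouse. The downregulation was small (LFC -0.28, SE 0.08, adjusted p = 0.038). It was called in 3 of the 12 fits without 1 mouse, and the adjusted p reached 0.116 without ZnSO4 + PBS replicate 1, 0.105 without ZnSO4 + PBS replicate 3, 0.110 without ZnSO4 + Dex replicate 2 and 0.074 without ZnSO4 + Dex replicate 3. It lay between 0.053 and 0.057 without ZnSO4 + PBS replicate 2, water + PBS replicate 3 or any 1 of the water + Dex replicates.

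The other clock genes of this comparison were not called. Dbp had 21.7, 19.2 and 13.9 normalised counts in the ZnSO4 + PBS mice and 12.4, 5.76 and 11.7 in the ZnSO4 + Dex mice. The groups were apart, and the LFC was -0.87 (SE 0.39, adjusted p = 0.19), or -0.60 (adjusted p = 0.36) with the B cell markers as a covariate. Summed B cell markers were at 12.3 to 486 CPM in the ZnSO4 + PBS and 13.2 to 71.5 CPM in the ZnSO4 + Dex mice. Per3 (LFC -0.20, interval -0.67 to 0.28), Cry1 (-0.26, interval -0.70 to 0.18), Arntl (-0.07, interval -0.32 to 0.19) and Nr1d2 (-0.08, interval -0.41 to 0.26) overlapped between the groups.

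**Figure D3:**
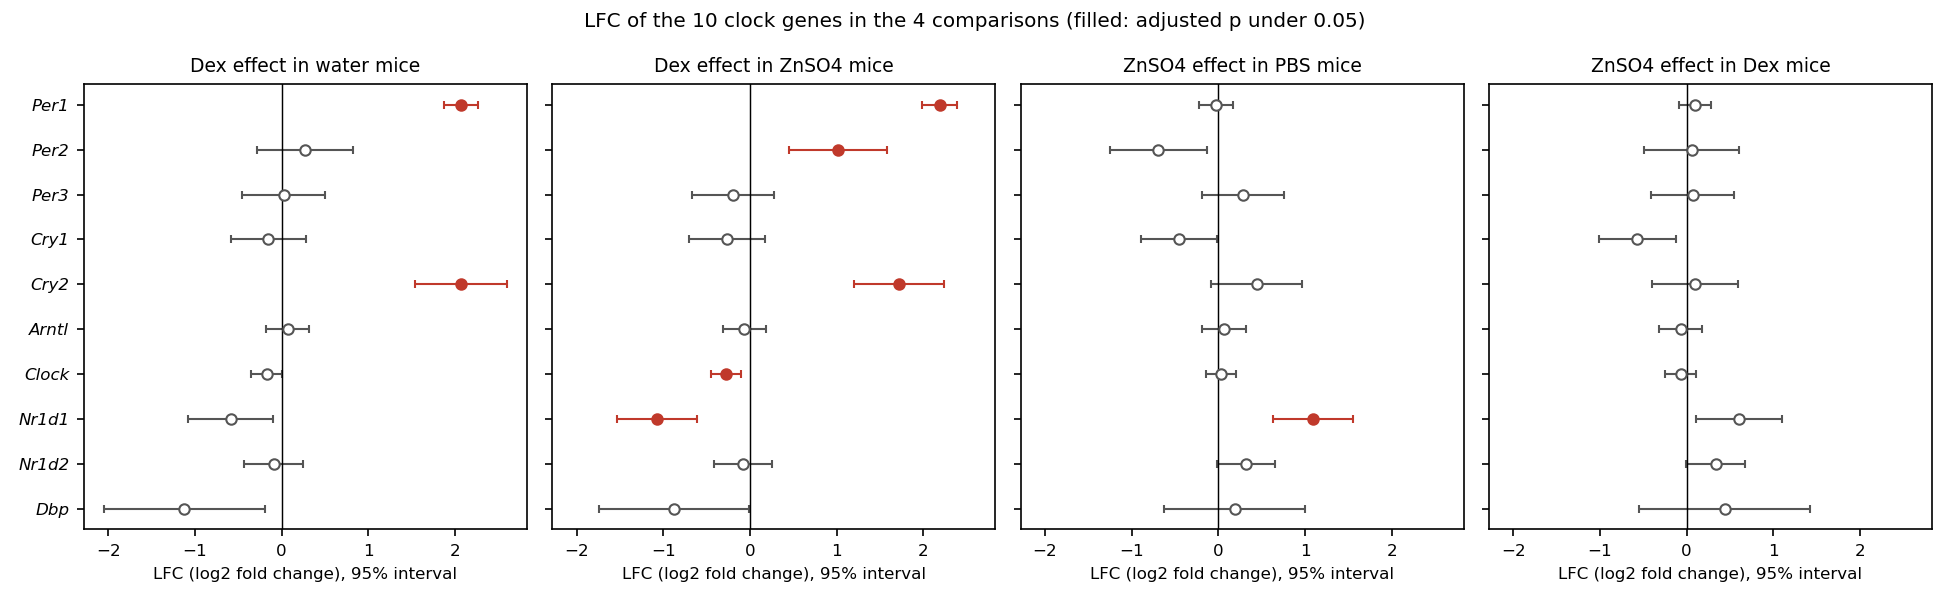
LFC (x axis) of the 10 clock genes (y axis) in the 4 comparisons, with 95% intervals; filled red points passed an adjusted p of 0.05. Per1 and Cry2 lie near 2 in both Dex comparisons, and Nr1d1 lies at 1.09 with ZnSO4 in PBS mice and at -1.07 with Dex in ZnSO4 mice.

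Whether the Dex effect itself differed between water and ZnSO4 mice was tested as the interaction. edgeR's quasi-likelihood test called 0 of the 10 clock genes, and 0% of all genes tested were called. DESeq2 also called 0 of the 10. Of the 10 genes 0 had an unadjusted p under 0.05, against 4.98% of all genes tested. The difference of the Dex LFCs (ZnSO4 minus water) was 0.12 for Per1 (interval -0.15 to 0.39) and -0.35 for Cry2 (interval -1.07 to 0.38). It was 0.75 for Per2 (interval -0.04 to 1.54, adjusted p = 0.95), -0.49 for Nr1d1 (interval -1.16 to 0.19) and -0.11 for Clock (interval -0.35 to 0.14). For Dbp it was 0.25 (interval -1.02 to 1.52) and for Per3 -0.22 (interval -0.89 to 0.46). For Cry1 it was -0.11 (interval -0.73 to 0.51), for Arntl -0.13 (interval -0.49 to 0.22) and for Nr1d2 0.01 (interval -0.46 to 0.49). Single mice moved these differences. That of Per2 was 0.37 to 0.92 over the 12 fits, with the smallest size without water + PBS replicate 3. That of Nr1d1 was -0.69 to -0.30, with the smallest size without water + Dex replicate 2. That of Cry2 was -0.11 without ZnSO4 + Dex replicate 2 and -0.60 without ZnSO4 + Dex replicate 3. Over the fits without 1 mouse, that of Clock was -0.18 to -0.041, with the ends reached without water + PBS replicates 1 and 2, and that of Per1 was 0.030 to 0.17, without ZnSO4 + Dex replicates 1 and 2. The calls of Per2, Nr1d1 and Clock in ZnSO4 mice only were thus not shown to differ from the effects in water mice. The intervals for Per2, Cry2 and Nr1d1 are wide enough to hold a difference of 1 LFC unit in 1 direction. That for Dbp holds it in both directions.

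ZnSO4 alone, compared in PBS mice, raised Nr1d1 about 2-fold and changed no other clock gene past the threshold. This comparison shares the water + PBS mice with the Dex effect in water mice and the ZnSO4 + PBS mice with the Dex effect in ZnSO4 mice. The call of 1 of 10 genes stands beside 4.66% of all genes tested, of which 2.11% were upregulated. The groups did not overlap for 5 of the 10 genes (Cry2, Nr1d1 and Nr1d2 higher, Per2 and Cry1 lower with ZnSO4), against 25.3% of all genes tested. The median LFC was 0.13 over the 10 genes and -0.01 over all genes tested.

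Nr1d1 had 48.6, 56.2 and 39.9 normalised counts in the water + PBS mice and 114, 86.9 and 107 in the ZnSO4 + PBS mice. The groups were well apart. The fold was 2.13 (LFC 1.09, SE 0.21, 95% interval 0.63 to 1.55, adjusted p = 0.015). The call was lost in 4 of the 12 fits that left out 1 mouse, with an adjusted p of 0.053 and 0.055 without water + PBS replicates 1 and 3 and of 0.062 and 0.057 without ZnSO4 + PBS replicates 1 and 3, while the LFC stayed between 0.97 and 1.21. Nr1d2, the paralog, had 196, 165 and 185 normalised counts in the water + PBS and 206, 271 and 204 in the ZnSO4 + PBS mice. These groups were just apart, and the LFC of 0.32 (interval -0.01 to 0.66) was not called (adjusted p = 0.27), and was 0.17 without ZnSO4 + PBS replicate 2.

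In the negative limb, the values of Per2 and Cry1 were lower with ZnSO4 and that of Cry2 was higher, but none was called. The LFC of Per2 was -0.69 (SE 0.26, adjusted p = 0.16) and -0.32 without water + PBS replicate 3, the mouse with the highest count of Per2 in that group. Cry1 had 482, 519 and 751 normalised counts in the water + PBS and 470.5, 424 and 382 in the ZnSO4 + PBS mice. The groups were just apart, with an LFC of -0.46 (SE 0.20, adjusted p = 0.23) that was -0.23 (adjusted p = 0.56) without water + PBS replicate 3. Cry2 had an LFC of 0.44 (SE 0.24, adjusted p = 0.35). Per1 hardly moved, with an LFC of -0.03 and an interval of -0.23 to 0.17. Per3 (LFC 0.29, interval -0.18 to 0.76) and Dbp (0.19, interval -0.62 to 1.002) overlapped. So did Arntl (0.06, interval -0.19 to 0.32) and Clock (0.03, interval -0.14 to 0.21).

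The summed level of 6 T cell markers, all detected in every group, was 70.9 to 124 CPM in the water + PBS mice and 34.6 to 71.6 CPM in the ZnSO4 + PBS mice. Among Dex mice it was 70.0 to 93.9 CPM with water and 36.9 to 40.9 CPM with ZnSO4, with no overlap. The summed level of 5 smooth muscle markers was also apart among Dex mice, at 1395 to 1485 CPM with water and 1604 to 2318 CPM with ZnSO4. It overlapped among PBS mice (1108.5 to 1456 and 1322 to 2332 CPM). The summed level of 4 Paneth and goblet cell markers overlapped between the PBS groups (8226 to 11693 and 8400 to 11246 CPM). The goblet cell genes Muc2 and Tff3 were apart and higher with ZnSO4. Muc2 was at 11813 to 12158 normalised counts with water and 18792 to 27707 with ZnSO4. Tff3 was at 9352 to 10166 and 10836 to 13025. The Paneth cell gene Mmp7 was apart and lower with ZnSO4 (2617 to 3817 and 1907 to 2301). Lyz1 overlapped (69299 to 107581 and 63553 to 93837). The enterocyte genes Fabp2 (22426 to 32742 and 39213 to 57934) and Alpi (2564 to 4365 and 5718 to 7322) were apart and higher with ZnSO4. The enterocyte genes Vil1, Fabp6, Slc10a2 and Apoa4 and the summed enterocyte level overlapped between the PBS groups. The part of these shifts in the clock gene values was not tested.

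Among Dex mice, ZnSO4 changed none of the clock genes past the threshold. edgeR's quasi-likelihood test called 0 of the 10, against 4.37% of all genes tested, and DESeq2 also called 0. An unadjusted p under 0.05 was found for 2 of the 10 genes, Cry1 and Nr1d1, against 19.1% of all genes tested, and the same 2 genes did not overlap between the groups, against 25.9%. Nr1d1 was at 32.0 ± 8.72 normalised counts in the water + Dex and 48.7 ± 6.91 in the ZnSO4 + Dex mice (n = 3 each), an LFC of 0.60 (interval 0.11 to 1.10, adjusted p = 0.16). Cry1 was at 525 ± 55.8 and 354 ± 96.3, an LFC of -0.57 (interval -1.01 to -0.13, adjusted p = 0.15). Per1 (LFC 0.09, interval -0.09 to 0.28), Clock (-0.07, interval -0.24 to 0.10) and Arntl (-0.07, interval -0.32 to 0.18) had the narrowest intervals. The intervals of Per2 (0.06, -0.50 to 0.61), Per3 (0.07, -0.41 to 0.55), Cry2 (0.09, -0.40 to 0.59) and Nr1d2 (0.34, -0.003 to 0.67) were wider. That of Dbp (0.44, -0.55 to 1.42) was the widest of the 10.

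The genes most alike to the 3 clock genes with the largest LFC in size, up or down, for Dex in water mice were found by the Pearson correlation of log2 CPM over the 12 libraries, which share the 4 treatments. For Per1 they were Fkbp5 (r = 0.997), a glucocorticoid-induced cochaperone of the glucocorticoid receptor, Cdc37l1 (r = 0.995) and Rbbp8 (r = 0.994). For Cry2 they were Tmem246 (r = 0.984), Gskip (r = 0.983) and Tmem86a (r = 0.983). Dbp, whose change was not called, had weaker matches, Rdm1 (r = 0.920), Gmip (r = 0.910) and Sema7a (r = 0.903). These values describe the libraries and were not tested.

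Of 18 other clock genes, 16 were tested, as Ciart and Rorb did not pass the filter on low counts. Dex in water mice called 2 of the 16, Nfil3 and Usp2, both upregulated, against 9.93% of all genes tested. Dex in ZnSO4 mice called 3, the same genes upregulated and Bhlhe41 downregulated, against 13.7%. With edgeR's quasi-likelihood test, ZnSO4 in PBS mice, ZnSO4 in Dex mice and the interaction called 0, against 4.66%, 4.37% and 0% of all genes tested. An unadjusted p under 0.05 was found for 4, 3 and 0 of the 16, against 19.8%, 19.1% and 4.98%, shares near the background. DESeq2 called 1, 0 and 0 in these comparisons. The 1 was Tef, a D-box binding activator related to Dbp, named here after its value was seen, with an LFC of 0.52 (adjusted p = 0.037) by DESeq2 and of 0.51 (adjusted p = 0.079) by edgeR. Both positive limb paralogs, Npas2 and Arntl2, were without a call by edgeR in every comparison.

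Usp2, a deubiquitinase that acts on clock proteins, had 367, 316 and 499.8 normalised counts in the water + PBS mice and 839.5, 872 and 818 in the water + Dex mice. With ZnSO4 it had 356, 303 and 206 counts with PBS and 777, 654 and 836 with Dex. Dex and PBS mice did not overlap with either drinking water. The LFCs were 1.10 (SE 0.20, adjusted p = 0.0039) and 1.39 (SE 0.20, adjusted p = 6.5e-04), and both calls held in all 12 fits that left out 1 mouse.

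Nfil3, a repressor that competes with DBP at D-boxes, had 524, 476 and 265 normalised counts in the water + PBS mice and 730.3, 764 and 821 in the water + Dex mice. With ZnSO4 it had 279, 266 and 305 counts with PBS and 631, 536 and 567 with Dex. The Dex mice were higher throughout. The LFCs were 0.87 (SE 0.19, adjusted p = 0.013) and 1.03 (SE 0.19, adjusted p = 0.0042). Without water + PBS replicate 3, the lowest of the water mice, the test also called Nfil3 for ZnSO4 in PBS mice (LFC -0.82, adjusted p = 0.0022) and for ZnSO4 in Dex mice (LFC -0.42, adjusted p = 0.028). With all mice these LFCs were -0.57 (adjusted p = 0.12) and -0.42 (adjusted p = 0.26). The call for Dex in water mice was lost without water + Dex replicate 3 (adjusted p = 0.060) and in a fit of only the 2 groups compared (adjusted p = 0.053).

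Bhlhe41, an E-box binding repressor, had 29.2, 63.1 and 14.8 normalised counts in the ZnSO4 + PBS mice and 5.18, 6.73 and 9.61 in the ZnSO4 + Dex mice. The groups did not overlap, and the LFC was -2.30 (SE 0.64, adjusted p = 0.034). In water mice it had 29.2, 90.3 and 44.7 counts with PBS and 21.2, 15.1 and 6.48 with Dex, an LFC of -1.93 that was not called (adjusted p = 0.060). Within each of the 4 groups the counts of Bhlhe41 ranked the mice as the summed B cell markers did. In both PBS groups replicate 2 was highest, with summed B cell markers of 649 and 486 CPM. With the B cell markers as a covariate the LFCs were -1.47 (adjusted p = 0.0057) in ZnSO4 mice and -1.32 (adjusted p = 0.0059) in water mice. The call in ZnSO4 mice was lost in 5 of the 12 fits without 1 mouse: the adjusted p was 0.117, 0.096 and 0.060 without ZnSO4 + Dex replicates 1, 2 and 3, and 0.059 and 0.138 without ZnSO4 + PBS replicates 1 and 2. Over the 12 fits the LFC was -2.67 to -1.61, with the smallest size without ZnSO4 + PBS replicate 2. In water mice the LFC was -2.32 to -1.37, and Bhlhe41 was called in 3 of the 12 fits, without water + PBS replicate 1 (adjusted p = 0.047) and without ZnSO4 + PBS replicates 2 (0.034) and 3 (0.040).

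**Figure D4:**
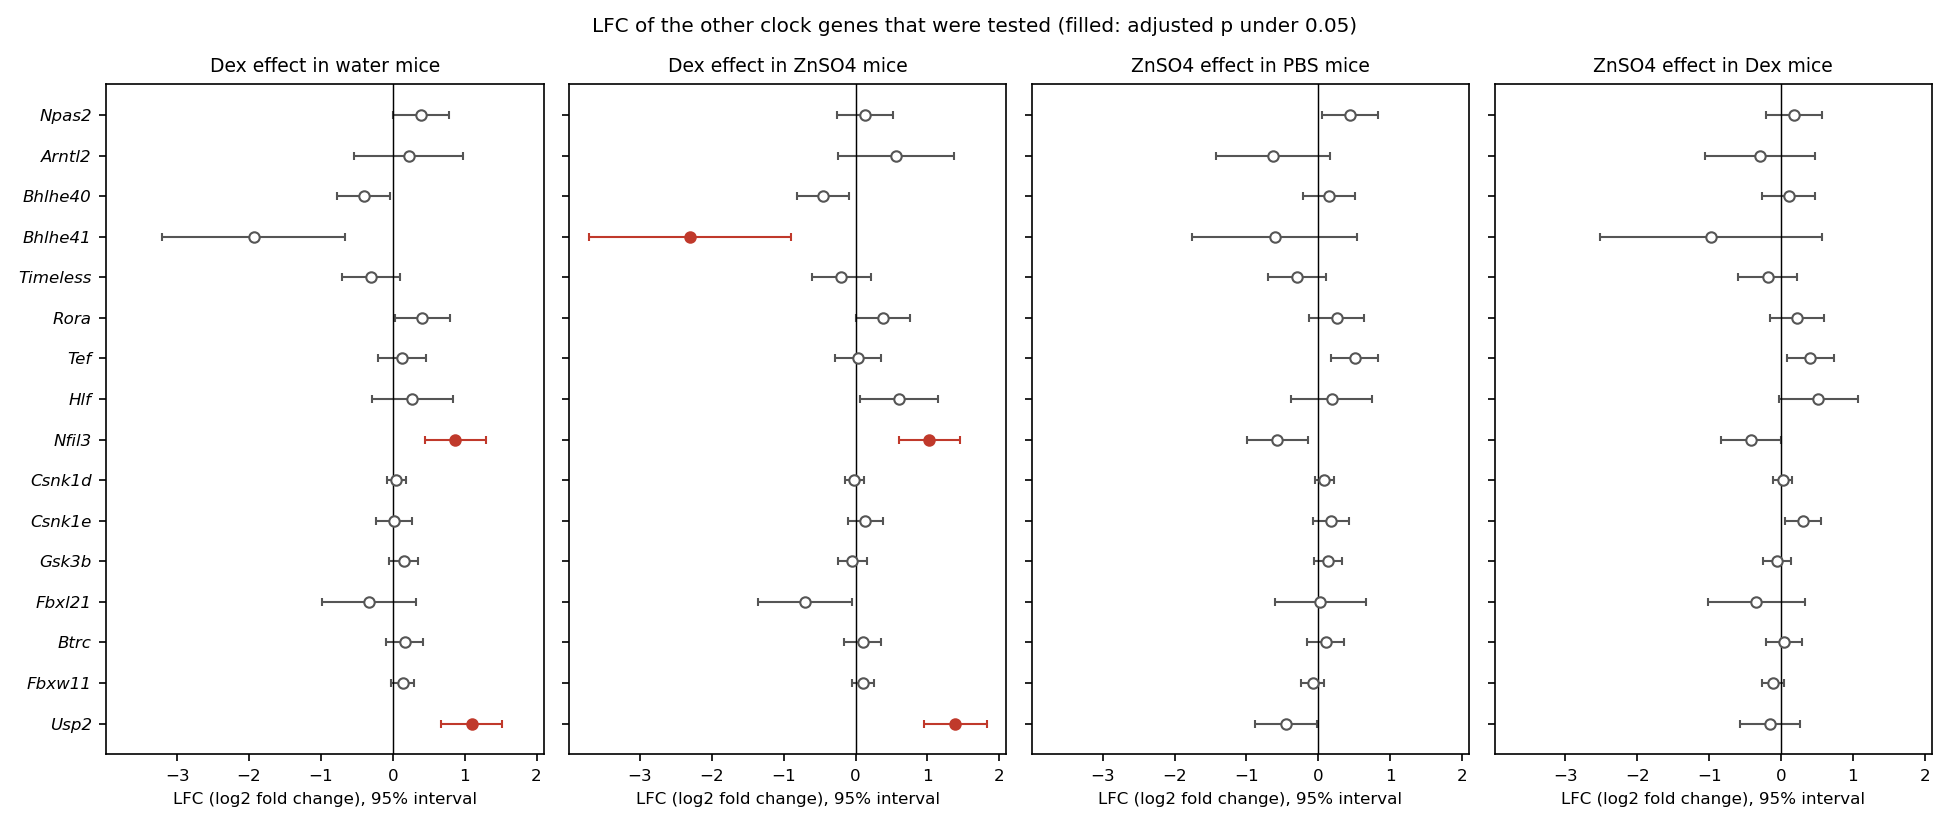
LFC (x axis) of the 16 other clock genes tested (y axis) in the 4 comparisons, with 95% intervals; filled red points passed an adjusted p of 0.05. Nfil3 and Usp2 lie right of 0 in both Dex comparisons, and Bhlhe41 has the widest intervals of the genes shown.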

How the data were processed

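RNA-seq was made from the ileum of 12 mice, 3 in each of 4 groups. The authors read strand-specific libraries from 1 end, aligned them to mm10 with HISAT2 2.0.4 and deposited raw counts per gene from featureCounts, leaving out reads with several positions. Trimmomatic, SAMtools and DESeq2 are named in the submitters' processing notes. The annotation release and the strand setting are not given in the sources used here, so reads of genes that overlap on opposite strands may not be separated.

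Of the 54838 genes counted, 24517 were at 0 throughout, and edgeR's filterByExpr (minimum count 10, by group) kept 15938, which held 99.8% of the counts. Counts were normalised by TMM and 1 quasi-likelihood model of 4 group means was fitted (R 4.3.3, edgeR 4.0.16, limma 3.58.1). The contrasts were Dex in water mice, Dex in ZnSO4 mice, ZnSO4 in PBS mice, ZnSO4 in Dex mice and the difference of the Dex effects. A gene was called at a Benjamini-Hochberg adjusted p under 0.05 over all genes tested. Normalised counts are counts per effective library size times the mean of 11377723. With 3 mice against 3, an exact permutation test cannot give a p below 0.1, so p-values are those of the model. FPKM values and positions used the exons of the GENCODE annotation of GRCm38, the assembly that mm10 names. Log2 CPM had a prior count of 2. Intervals are 95%.

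The 10 clock genes, the 18 other clock genes and the marker lists were chosen with earlier results of these data known. The 10 genes were described whatever their values, and other clock genes were named where called in any contrast. Some clock genes are not reported here. Alternatives were DESeq2 1.42.0, RLE factors, 2 other filters, a replicate block, a fit of only the groups compared, an LFC above 0.8 in size, a B cell covariate and leaving out each library. The alternatives for the named other clock genes were added after the data had been seen. On simulated data, in which 15710 to 15748 genes passed the filter, the procedure recovered 54% to 66% of changes of 1 and 86% to 93% of changes of 2 on the log2 scale over the contrasts of 2 groups.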

Additional observations from a re-analysis of the deposited data

How the results depend on the processing

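Depth and group size limit these values: Dbp had 5 to 25 reads per mouse, and with 3 mice per group the intervals of Per2, Cry2 and Dbp were wide. Of the 10 clock genes, 2 were called for Dex in water mice, 1 for ZnSO4 in PBS mice and 0 for ZnSO4 in Dex mice and for the interaction under every alternative other than leaving out 1 library (the interaction needs all groups, so it has no fit of only the groups compared). For Dex in ZnSO4 mice the count was 5, or 4 with all genes of at least 1 count (Clock, adjusted p = 0.083), with only the groups compared in the fit (Clock, adjusted p = 0.083) and with an LFC above 0.8 in size. With 1 library left out, the counts of clock genes called ranged from 3 to 5 for Dex in ZnSO4 mice and from 0 to 1 for ZnSO4 in PBS mice. Under the same fits the counts over all genes ranged from 936 to 1852 for Dex in water mice, from 283 to 1001 for ZnSO4 in PBS mice and from 322 to 696 for ZnSO4 in Dex mice.

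Over all genes, only the groups compared in the fit gave 1417 calls for Dex in ZnSO4 mice (2189 with all groups) and 411 for ZnSO4 in PBS mice (742). The interaction had 6 calls with DESeq2 and 0 with edgeR. An LFC above 0.8 in size left 705, 926, 271 and 303 genes for Dex in water mice, Dex in ZnSO4 mice, ZnSO4 in PBS mice and ZnSO4 in Dex mice. A stricter cut-off passes fewer genes by definition. Why the counts changed with only the groups compared in the fit and with DESeq2 was not tested.

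Same-numbered libraries did not deviate together (median r = -0.06 over 18 pairs, 0.02 over 36 pairs with other numbers, and 4 of 12 libraries closest to their own number). The main fit therefore had no pairing. The labels give only the number, and correlations over so few libraries cannot show that nothing else was shared. With the replicate block, 2, 5, 1, 0 and 0 of the 10 clock genes were called, as without it, and 1428, 2015, 577, 606 and 0 of all genes for Dex in water mice, Dex in ZnSO4 mice, ZnSO4 in PBS mice, ZnSO4 in Dex mice and the interaction. Under the block Bhlhe41 was called for Dex in water mice (adjusted p = 0.047). Bhlhe41 was also called there with DESeq2 (0.016) and with all genes of at least 1 count (0.023). With only the groups compared in the fit it lost the call for Dex in ZnSO4 mice (0.051).

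Only LFCs without a call changed sign. With RLE factors the interaction of Nr1d2 was -0.00033. Over the fits without 1 library, the LFC of Dex in water mice was -0.16 to 0.24 for Per3, -0.28 to 0.071 for Cry1 and -0.21 to 0.029 for Nr1d2. That of Dex in ZnSO4 mice was -0.15 to 0.070 for Arntl and -0.15 to 0.065 for Nr1d2. That of ZnSO4 in PBS mice was -0.061 to 0.048 for Per1, -0.031 to 0.12 for Clock and -0.013 to 0.66 for Dbp. That of ZnSO4 in Dex mice was -0.13 to 0.23 for Per2, -0.027 to 0.17 for Per3, -0.16 to 0.34 for Cry2 and -0.15 to 0.066 for Arntl. The interaction was -0.13 to 0.16 for Nr1d2, -0.22 to 0.53 for Dbp, -0.34 to 0.053 for Cry1, -0.22 to 0.0011 for Arntl, -0.94 to 0.32 for Bhlhe41 and -0.045 to 0.40 for Nfil3.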
